A study of Homo sapiens with 6 samples.

Results

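The genes described here encode the multidomain core of the BCL2 family, that is, the pore formers *BAX*, *BAK1* and *BOK* and the antiapoptotic guardians *BCL2*, *BCL2L1*, *BCL2L2*, *MCL1*, *BCL2A1* and *BCL2L10*. They were chosen by symbol, matched through the Ensembl identifier of each gene, and make up 9 of the 58336 genes in the count table. The RNA came from A2780 cells, an established ovarian cancer line. The cells were either treated for 48 h with 6 µM TH588 or given its vehicle, 0.1% dimethyl sulfoxide (DMSO). TH588 is a first-generation inhibitor of the nucleotide pool enzyme MTH1 that also stalls cells in mitosis. The sample labels state no exposure time for DMSO. Each treatment was sequenced as 3 libraries, named A, B and C, which the study describes as biological triplicates; all 6 libraries are of this 1 line, so the values hold for A2780 alone. The series design names 12 samples, and 6 were analysed here.

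BCL2 family proteins decide whether the outer mitochondrial membrane stays closed during stress. The pore formers BAX and BAK oligomerize in that membrane and release cytochrome c, which starts caspase activation, and BOK can form pores on its own. Guardians such as BCL2, BCL-XL (from *BCL2L1*), BCL-w (*BCL2L2*) and MCL1 bind and restrain the pore formers, and BH3-only proteins such as PUMA and BIM occupy the guardians or activate the pore formers directly. *BAX* is a long-known transcriptional target of p53, and MCL1 is a short-lived protein that ovarian and many other cancer cells often rely on.

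After TH588, *BAX* RNA rose 4.15-fold (log2 fold change 2.05, SE 0.10) and *MCL1* RNA rose 1.38-fold (0.47, SE 0.07), with 3 libraries in each group. These were 2 of the 7 genes abundant enough to test, 2 being higher where 24.2% of all 15844 tested genes were higher, and 0 of the 7 were lower where 25.3% of all tested genes were lower, at an adjusted p under 0.05 in edgeR's quasi-likelihood test. Per kilobase of all listed exon bases, *MCL1* was the most abundant of the 9 transcripts with DMSO, and *BAX* was with TH588. The summed pore formers were 0.591 ± 0.0418 times the summed guardians with DMSO (SD, n = 3). With TH588 they were 1.36 ± 0.0884 times the summed guardians (SD, n = 3). The order and both ratios depend on the exon lengths used, and the 2587 exon bases of *BAX* include noncoding stretches between coding ones. Because RNA was taken from bulk cultures, a change in the number of cells that express a gene and a change in RNA per cell cannot be told apart.

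Depth differed between the libraries, with totals of 83144642 to 98176722 counts in the DMSO libraries, 28537837 in TH588 A, 99074175 in TH588 B and 77634048 in TH588 C. Values are given as CPM, the counts scaled to a common library size with TMM factors, and levels of different genes are compared only per kilobase of exon (RPKM, on the same scaling). The line carried little of the ovarian and epithelial marker set. Of 9 such markers 3 could be tested, *PAX8* had 0 counts in 5 libraries and 2 in the remaining one, and *CDH1* and *KRT19* had at most 2 counts in any library. The summed level of these 9 markers was 3.86 to 4.75 CPM with DMSO and 11.3 to 12.5 CPM with TH588, and the 3 tested, *EPCAM* (log2 fold change 2.87), *FOLR1* (1.59) and *KRT18* (0.88), were all higher by edgeR's test. Of all tested genes 24.2% were higher by this test. Leukocyte markers summed to 0.925 to 1.72 CPM with DMSO and 1.41 to 1.53 CPM with TH588, with *CD3E* at 0 counts everywhere and *PTPRC* at no more than 10 counts, while *CD14* rose from 0.0649 to 0.336 CPM. Stromal and endothelial markers summed to between 1580 and 1910 CPM with DMSO and 1870 and 2610 CPM with TH588, nearly all of it the collagen gene *COL3A1*. The groups of *COL3A1* overlapped, but it rose by 0.39 on the log2 scale and passed (adjusted p = 0.0154 in edgeR). It was the only 1 of the 4 tested in this list that did. The part of these marker differences in the results below was not tested.

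The promoters of *BAX* and *BAK1* are shown because *BAX* moved most among the 9 genes, whereas *BAK1*, its closest partner in function, did not pass the test, and because p53, named above as a regulator of *BAX*, has a known decamer consensus that can be looked for. RefSeq's promoter table (GRCh38.p14), which holds 250 bases before and 50 after each gene's start, had entries for 6 of the 9 genes; *MCL1*, *BCL2L2* and *BCL2L10* were not matched. The stretches printed end where the first exon of the count table begins, and capitals mark an exact match to the p53 decamer, whose consensus is its own reverse complement, so that 1 search covers both strands. The first is chr19:48954625-48954814 on the plus strand, and the second is chr6:33580294-33580526, read on the minus strand.
BAX promoter: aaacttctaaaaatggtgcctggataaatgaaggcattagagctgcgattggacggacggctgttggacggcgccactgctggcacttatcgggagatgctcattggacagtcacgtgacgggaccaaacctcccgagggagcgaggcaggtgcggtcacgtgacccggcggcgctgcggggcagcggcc
BAK1 promoter: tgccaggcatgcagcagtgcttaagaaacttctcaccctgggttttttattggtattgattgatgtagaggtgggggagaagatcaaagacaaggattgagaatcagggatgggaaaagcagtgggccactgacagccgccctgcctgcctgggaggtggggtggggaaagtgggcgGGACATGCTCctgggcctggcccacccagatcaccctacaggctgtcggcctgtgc

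The *BAK1* window held 1 exact decamer, and the windows of *BAX*, *BOK*, *BCL2*, *BCL2L1* and *BCL2A1* held none. The *BAK1* decamer begins 73 bases before RefSeq's start. That start lies inside the first exon of the count table, past the end of the printed stretch. An exact decamer occurred in 6.63% of the 35116 promoters in the table. With at most 1 mismatch and the core C and G kept, *BOK* held 3, *BCL2A1* 2, *BAK1* 1, and *BAX* and *BCL2* 0. *BCL2L1* held 1 in 1 of its windows. Such a decamer occurred in 45.1% of all promoters. A single decamer does not show p53 binding, which was not tested, and sequence outside the window was not searched. The GC content of the 300-base window was 67.3% for *BAX* and 58.7% for *BAK1*, against a median of 58.7% over all promoters.

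Among the pore formers, *BAX* (ENSG00000087088) lies on chromosome 19 of GRCh38 from 48954815 to 48961798, and its 2587 exon bases overlap no other gene of the table. It had 1052, 1301 and 1199 counts in the vehicle libraries A to C and 1529, 5908 and 5043 counts in the treated libraries A to C, which is 12.8, 15.8 and 12.8 CPM against 57.1, 54.3 and 60.4 CPM. The lowest treated library thus stood more than 3 times above the highest vehicle library, and the spread within each group was small, with an SD of 12.4% of the mean for DMSO and 5.34% for TH588. The log2 fold change was 2.05 with a 95% interval of 1.83 to 2.28 (SE 0.10, adjusted p = 4.06e-08 by edgeR's quasi-likelihood test). Of the 15844 genes tested, 2.54% rose more. TH588 A was the shallowest library, and without it the log2 fold change of *BAX* was 2.07.

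*BAK1* (ENSG00000030110, chromosome 6, 33572547 to 33580293), which encodes BAK, the pore former that resides in the outer membrane of healthy mitochondria, stood at 6.39, 5.85 and 4.88 CPM after DMSO and 7.96, 7.55 and 6.33 CPM with TH588. The TH588 C library lay just below DMSO A, so the groups overlapped. The log2 fold change was 0.34 with a 95% interval of 0.03 to 0.66, and an unadjusted p of 0.0325 became 0.0628 after Benjamini-Hochberg adjustment in edgeR. *BAK1* therefore missed the threshold narrowly, which does not show that it was unchanged, and it passed in 4 of 15 alternative analyses, among them without DMSO A (0.45) and without TH588 C (0.46). Its processed copy *BAK1P1* held 2 to 14 counts per library and *BAK1P2* held 0, against 213 to 821 for *BAK1*, and how reads matching several genes were counted is not stated.

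*BOK* (ENSG00000176720, chromosome 2, 241551424 to 241574138), the pore former whose protein is kept low by degradation at the endoplasmic reticulum, was scarce, with 1.30, 1.11 and 1.61 CPM after DMSO and 1.53, 1.73 and 1.87 CPM with TH588. DMSO C exceeded TH588 A, which had only 41 counts. The estimate of 0.36 had a 95% interval from -0.10 to 0.82 (adjusted p = 0.184 by edgeR's quasi-likelihood test), an interval that includes both no change and a change larger than that of *MCL1*. The antisense gene *BOK-AS1* shares 7.4% of the exon bases of *BOK* and was listed at 0 counts in every library.

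**Figure D1:**
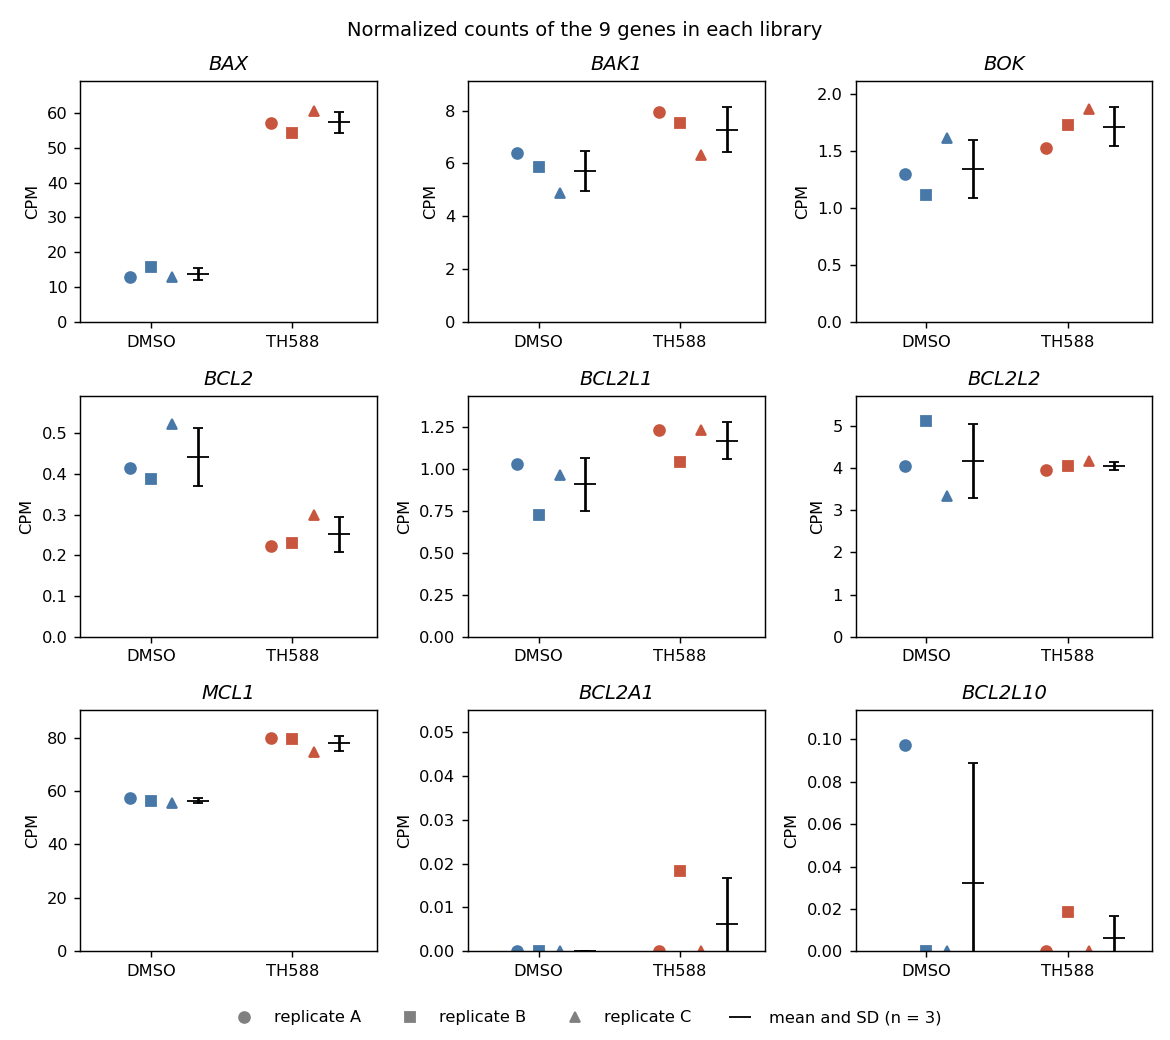
Normalized counts (CPM, vertical axes starting at 0, with a different scale for each gene) of the 9 genes in the 3 DMSO and 3 TH588 libraries, with the mean and SD of each group drawn beside the points. *BAX* and *MCL1* separate cleanly, *BCL2* and *BCL2L1* separate by small margins, and *BCL2A1* and *BCL2L10* sit at 0 in most libraries.

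Among the guardians, *MCL1* (ENSG00000143384, chromosome 1, 150574551 to 150579738) had 4636 to 5193 counts with DMSO and 2132, 8640 and 6226 with TH588. In CPM it was 57.3, 56.2 and 55.4 with DMSO and 79.7, 79.4 and 74.6 with TH588. The groups did not overlap, and this gene had the tightest vehicle replicates of the 7 tested genes, with an SD of 1.65% of the mean. The log2 fold change was 0.47, with a 95% interval of 0.31 to 0.63 (SE 0.07, adjusted p = 0.000224 by edgeR's quasi-likelihood test). This was a modest change on the scale of the experiment, since 25.9% of the tested genes rose more. Leaving out each library in turn kept the estimate between 0.45 and 0.52.

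*BCL2* (ENSG00000171791, chromosome 18, 63123346 to 63320128), the founding guardian, was barely expressed, at 34, 32 and 49 counts with DMSO and 6, 25 and 25 counts with TH588. These correspond to 0.414, 0.388 and 0.523 CPM against 0.224, 0.230 and 0.300 CPM, so that every treated library was below every vehicle library. The estimate was -0.79 with a 95% interval from -1.62 to 0.03 (unadjusted p = 0.0579, adjusted p = 0.102 by edgeR's quasi-likelihood test), so the lower values did not pass the threshold, and a rise of more than 0.03 lay outside the interval. The 6 counts in TH588 A alone have an exact Poisson 95% interval of 2.2 to 13.1 counts, which covers counting error only.

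*BCL2L1* (ENSG00000171552, chromosome 20, 31664452 to 31723989), the source of BCL-XL and of the proapoptotic splice form BCL-XS, had 1.03, 0.727 and 0.961 CPM with DMSO and 1.23, 1.04 and 1.23 CPM with TH588. The lowest treated value was a hair above the highest vehicle value, and the estimate of 0.35 did not pass (95% interval -0.18 to 0.89, adjusted p = 0.254 by edgeR's quasi-likelihood test). Its level is uncertain, because 1424 of its 3314 exon bases, 43.0%, are also exon bases of the opposite-strand long noncoding RNA *ABALON*, and the shared stretch takes in 80.7% of the coding bases. The library kit does not mark strand, and the treatment of reads in overlapping exons is not stated. *ABALON* itself was listed at 0 to 3 counts, and summing both genes gave a log2 fold change of 0.35. With so few counts to add, that sum could hardly move the estimate and does not test the effect of the overlap. Gene counts cannot separate BCL-XL from BCL-XS.

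*BCL2L2* (ENSG00000129473, chromosome 14, 23298790 to 23311759), which encodes BCL-w, had 4.05, 5.11 and 3.35 CPM with DMSO and 3.96, 4.04 and 4.16 CPM with TH588. The treated libraries fell inside the wider vehicle range, with an SD of 21.3% of the mean for DMSO and 2.44% for TH588. The estimate of -0.04 had a 95% interval from -0.40 to 0.32 (adjusted p = 0.869 by edgeR's quasi-likelihood test) and became 0.13 without DMSO B. The same-strand readthrough gene *BCL2L2-PABPN1* shares 813 of the 4189 exon bases of *BCL2L2*, and overlaps of any kind cover 61.5% of its coding bases. The readthrough was counted at 4.05 ± 0.145 CPM in the vehicle group and 3.56 ± 0.581 CPM in the treated group (SD of 3 libraries). Its log2 fold change was -0.16 (adjusted p = 0.396 by edgeR's quasi-likelihood test), and the sum of both genes gave -0.10. If reads in shared exons were not counted for either gene, the sum lacks them too, so it does not test the effect of the overlap.

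The remaining guardians were at the limit of detection. *BCL2A1* (ENSG00000140379, chromosome 15, 79960889 to 79971446), which encodes the guardian BFL1 best known from blood cells, had 2 counts in TH588 B and 0 elsewhere. *BCL2L10* (ENSG00000137875, chromosome 15, 52109263 to 52112775) had 8 counts in DMSO A, 2 in TH588 B and 0 in the other 4 libraries. The limit that a count of 0 allows was set at 3 counts, a one-sided 95% limit for counting error, which is 0.112 CPM in TH588 A and 0.0276 to 0.0365 CPM in the other libraries, so no fold is given for either gene.

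**Figure D2:**
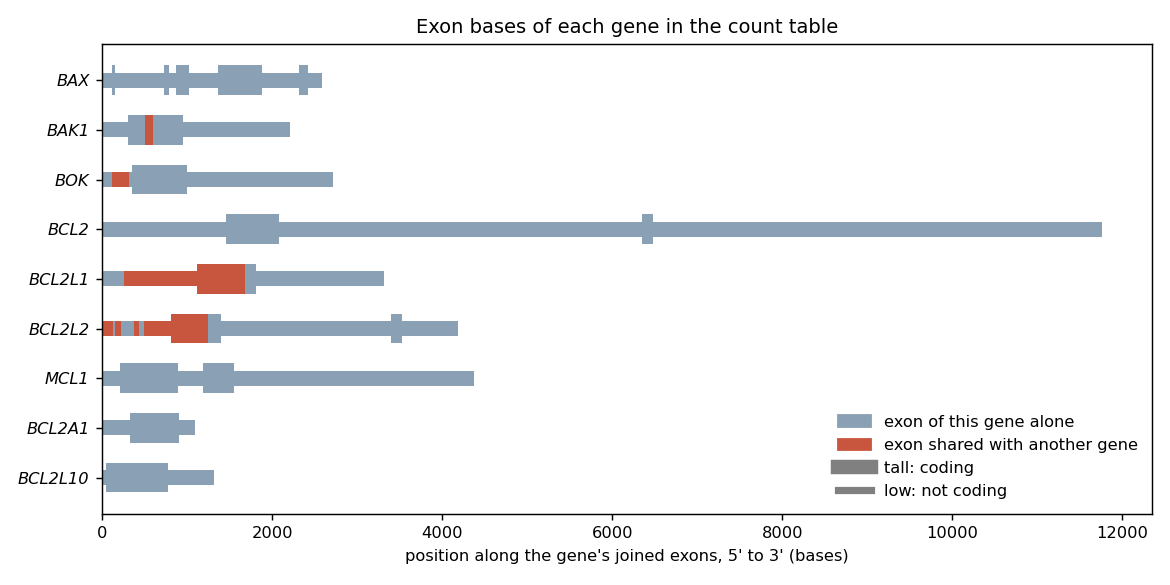
Joined exons of each of the 9 genes, drawn to scale from 5′ to 3′ in bases, with tall blocks for coding and low blocks for noncoding bases and red for bases that another gene of the table also covers. *BCL2L1* and *BCL2L2* share most of their coding bases, whereas *BAX*, *BCL2*, *BCL2A1* and *BCL2L10* share none and *MCL1* shares 2 bases.

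At an unadjusted p under 0.05 in edgeR, 3 of the 7 genes were higher, against 27.4% of all tested genes, and 0 were lower, against 28.1%, and none of the 7 was called lower in any of the 18 alternative analyses, which included DESeq2 and limma-voom. The groups did not overlap for 4 of the 7 (*BAX*, *MCL1*, *BCL2* and *BCL2L1*), against 57.7% of all tested genes, which is 9149. The median log2 fold change over the 7 was 0.35 and over all tested genes 0.02, and 5 of the 7 estimates were above 0, as were 51.2% of all estimates. The smallest p that an exact permutation test can give for 3 libraries against 3 is 0.1, and the calls therefore come from the model fitted across all genes.

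**Figure D3:**
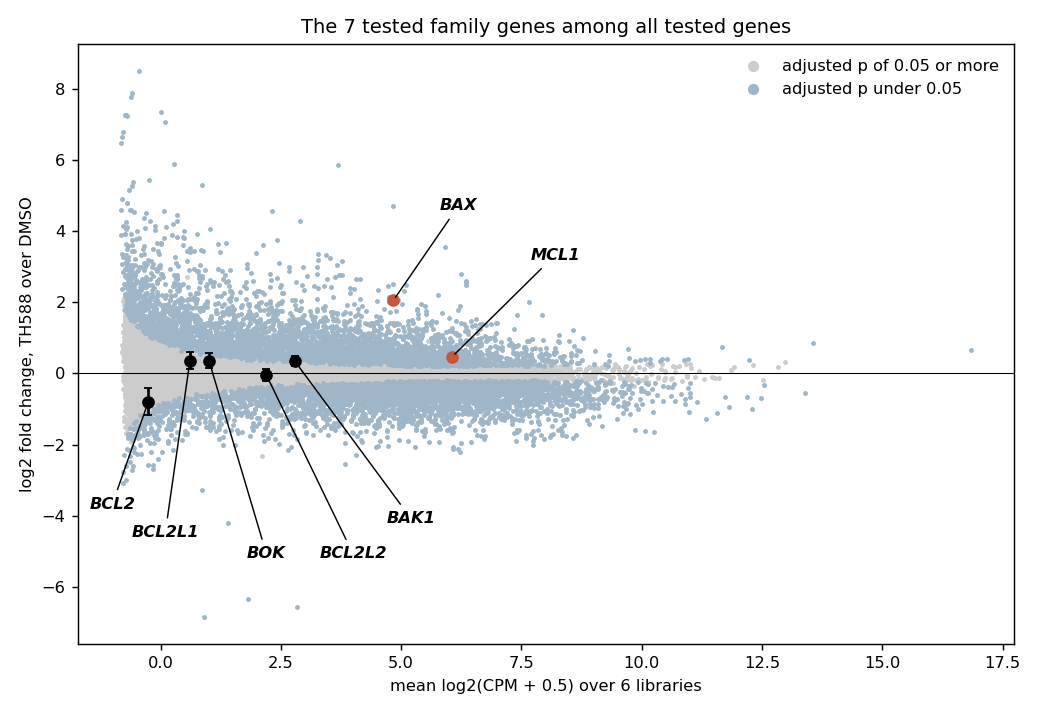
Log2 fold change (TH588 over DMSO) against mean log2(CPM + 0.5) over the 6 libraries for all 15844 tested genes, with the 7 tested family genes marked with their SE, red where the adjusted p was under 0.05. *BAX* is among the larger rises of genes of its abundance, *MCL1* just above the band of genes that did not pass, and the other 5 lie inside or beside that band.

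Per kilobase of exon, the order of the 7 tested transcripts with DMSO was *MCL1* (12.9 ± 0.213 RPKM), *BAX* (5.33 ± 0.661), *BAK1* (2.58 ± 0.346), *BCL2L2* (0.996 ± 0.212), *BOK* (0.495 ± 0.0927), *BCL2L1* (0.274 ± 0.0484) and *BCL2* (0.0375 ± 0.00611), each as mean ± SD of 3 libraries. The ranges of neighbours in this order did not overlap, although the levels of *BCL2L1* and *BCL2L2* depend on how shared exons were counted. With TH588 the order of these 7 changed at the top only, to *BAX* (22.1 ± 1.18 RPKM) ahead of *MCL1* (17.8 ± 0.653), followed by *BAK1* at 3.29 ± 0.384, *BCL2L2* at 0.968 ± 0.0237, *BOK* at 0.631 ± 0.0625, *BCL2L1* at 0.353 ± 0.0339 and *BCL2* at 0.0213 ± 0.00357. *BAX* and *MCL1* again had separate ranges, of 21.0 to 23.4 and 17.1 to 18.2 RPKM. Their order in either group depends on the exon length used. The listed exons of *BAX* hold noncoding stretches between coding ones, such as bases 149 to 733, and those of *MCL1* hold bases 897 to 1182. A shorter length would raise a gene's RPKM in both groups alike. On CPM without length, *MCL1* stayed ahead with TH588, at 77.9 against 57.3 for *BAX*.

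As a share of the summed RPKM of the 9 genes, *MCL1* went from 57.0% ± 2.07 to 39.4% ± 1.62 although its own level rose, and *BAX* went from 23.5% ± 2.19 to 48.9% ± 2.27 (SD, n = 3 each). *BAK1* went from 11.4% to 7.27% and *BCL2L2* from 4.38% to 2.14%, and the other 5 genes made up the small rest. The sum itself rose from 22.6 ± 0.969 to 45.2 ± 0.641 RPKM. Shares and sum depend on the same exon lengths.

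**Figure D4:**
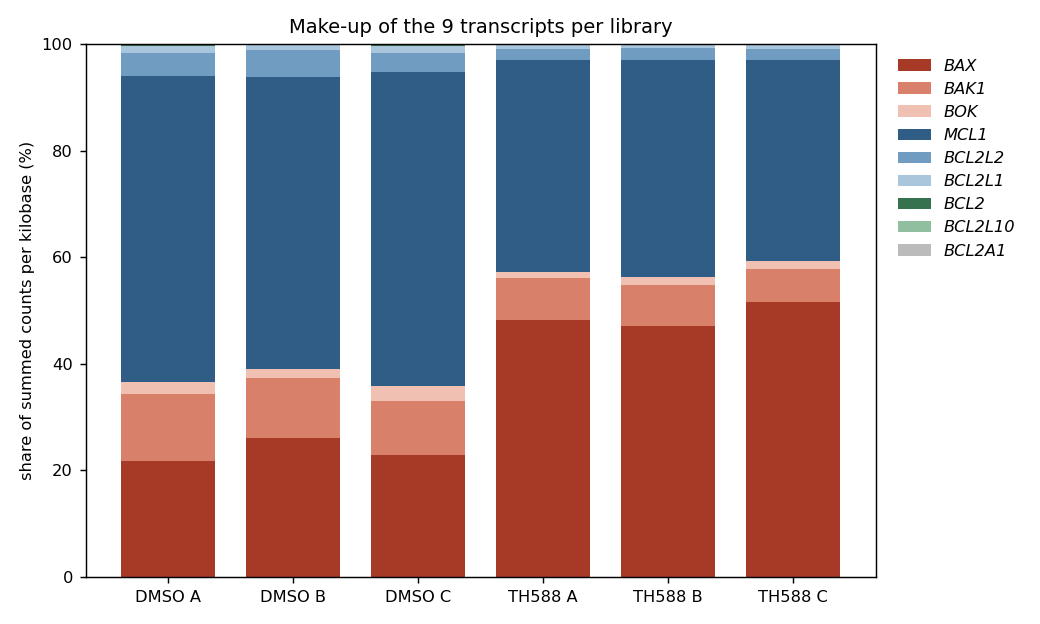
Share (%) of each of the 9 genes in the summed counts per kilobase of each library, stacked to 100% with pore formers in red below and guardians above. *BAX* takes 23.5% of the DMSO columns and 48.9% of the TH588 columns on average, and *MCL1* takes 54.7% or more with DMSO and 40.8% or less with TH588.

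Summed over the 3 pore formers, the level was 8.32, 9.15 and 7.75 RPKM with DMSO and 26.2, 25.0 and 26.9 RPKM with TH588. Summed over the 6 guardians it was 14.5, 14.3 and 13.8 RPKM with DMSO and 19.6, 19.5 and 18.5 RPKM with TH588. Both sums were thus higher in every treated library, and the pore former sum by the larger factor.

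The ratio of the sums was 0.574, 0.639 and 0.561 in the vehicle libraries A to C and 1.34, 1.28 and 1.46 in the treated ones, a 2.3-fold difference with no overlap. It is given as a description, since the sums are dominated by *BAX* and *MCL1*. Leaving *BCL2L1* and *BCL2L2* out of the guardians gave 0.649 and 1.46, and leaving the shared exon bases out of the lengths gave 0.58 and 1.33. On CPM without gene length the ratio was 0.337 with DMSO and 0.796 with TH588, below 1 in both groups, so the crossing of 1 depends on the scale while the direction does not.

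Single ratios show where the balance moved. *BAX* over *MCL1*, in RPKM, was 0.378, 0.474 and 0.390 with DMSO and 1.21, 1.16 and 1.37 with TH588. *BAX* over *BAK1* went from 1.71, 2.30 and 2.24 to 6.14, 6.15 and 8.17, so the 2 main pore formers did not move in proportion. In contrast, *BAK1* over *MCL1* was 0.220, 0.206 and 0.174 with DMSO and 0.197, 0.188 and 0.168 with TH588, with overlapping groups. *BAX* over *BCL2L2* went from 5.43 ± 0.655 to 22.9 ± 0.987 and over *BCL2L1* from between 15.9 and 27.8 to between 59.4 and 67.0.

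The genes whose profile over the 6 libraries was most like that of *BAX* were *DLGAP1-AS1*, *DDB2* and *PLK2*, with root mean square differences of 0.0707, 0.0808 and 0.0915 in log2(CPM + 0.5) centred on each gene's mean, among 9923 genes. Their log2 fold changes were 2.07, 1.90 and 2.16. The first is named as an antisense RNA and its reads cannot be assigned to a strand. For *MCL1* the nearest were *RAB29* (0.0275), *YIF1B* (0.0295) and *EAF1* (0.0297), with log2 fold changes of 0.47, 0.50 and 0.49. Only 6 libraries in 2 groups define these profiles, so likeness here means chiefly a similar fold change.

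The BH3-only genes, whose proteins act on the 9 described above, moved in both directions. Of 8 listed, 5 could be tested, and 1 was higher and 2 were lower, with a median log2 fold change of -0.54. Of all tested genes 24.2% were higher and 25.3% were lower. *BBC3*, which encodes PUMA, a binder of all the main guardians, was 0.426, 0.594 and 0.256 CPM with DMSO and 2.58, 2.99 and 2.96 CPM with TH588 (log2 fold change 2.75, SE 0.28, adjusted p = 6.43e-06 by edgeR's quasi-likelihood test). *BCL2L11*, which encodes BIM, fell from 1.64, 1.99 and 1.85 CPM to 0.747, 0.974 and 1.05 CPM (log2 fold change -0.95, adjusted p = 0.00307 by the same edgeR test), with 10.9% of its exon bases shared with *MIR4435-2HG*. *BID*, whose product links death receptors to BAX and BAK, fell from 14.3, 11.9 and 14.4 CPM to 11.1, 9.20 and 7.94 CPM (log2 fold change -0.54, adjusted p = 0.00706 by the same edgeR test). In all 3 the groups were separate, as they were for 57.7% of all tested genes.

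*BAD*, an antagonist of BCL2, BCL-XL and BCL-w, had an estimate of -0.58 with overlapping groups (95% interval -1.09 to -0.08, adjusted p = 0.0552 by edgeR's quasi-likelihood test), and 23.7% of its exon bases are shared with *GPR137*. It passed without DMSO C (-0.71), without TH588 C (-0.81) and without the filter on low counts (-0.57). *BIK* had an estimate of 0.28 (95% interval -0.42 to 0.98). *BMF* was too scarce to test, with 0 counts in each DMSO library and 5, 19 and 8 counts in TH588 A, B and C. *PMAIP1*, which encodes the MCL1 antagonist NOXA, and *HRK* were listed at 0 counts in all 6 libraries. Whether the counting or the gene models bear on these zeros was not tested, and they are not read as absence of the transcripts.

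**Figure D5:**
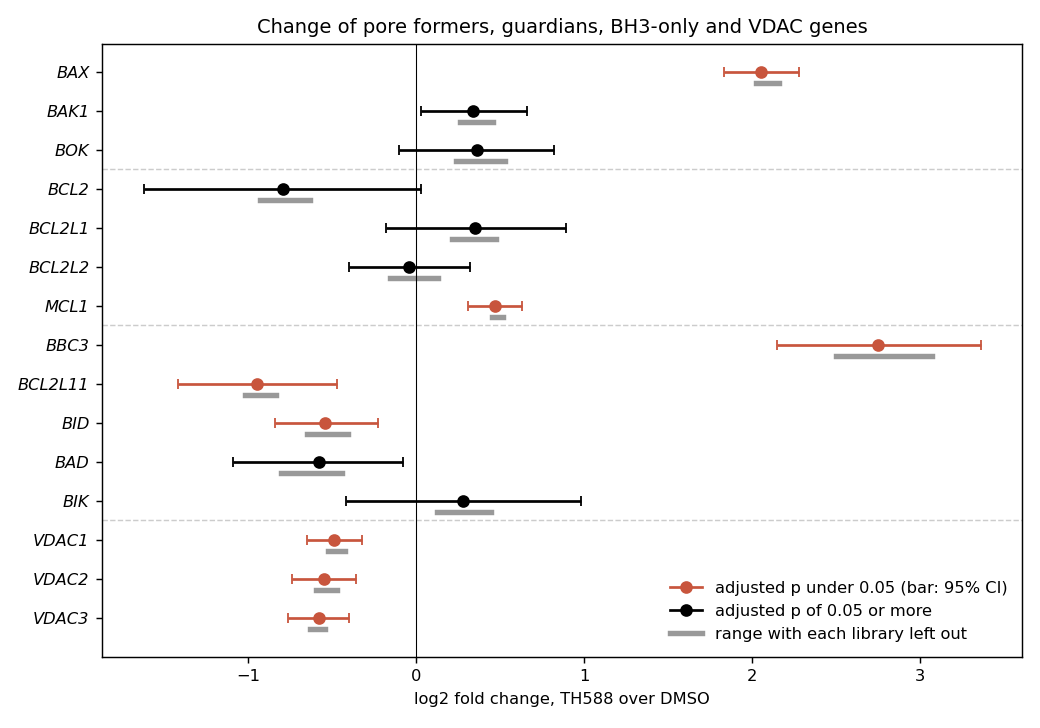
Log2 fold change (TH588 over DMSO) of pore formers, guardians, BH3-only and VDAC genes with 95% intervals, red where the adjusted p was under 0.05, and in grey the range of the estimate when each library was left out in turn. *BAX* and *BBC3* stand apart above 1.5, the 3 VDAC genes lie between -0.58 and -0.49, and the grey bar of *BCL2L2* crosses 0.

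Of the less studied BCL2-like genes, 3 of 4 could be tested and 1 passed, against 49.6% of all tested genes. *BCL2L13*, which encodes a mitochondrial outer membrane protein with BCL2 homology, was 25.8, 26.8 and 29.0 CPM with DMSO and 38.3, 44.5 and 42.0 CPM with TH588 (log2 fold change 0.61, SE 0.09, adjusted p = 0.000115 by edgeR's quasi-likelihood test). *BCL2L12* (-0.24), which shares 33.1% of its exon bases with *IRF3*, and *BCL2L14* (0.09) did not pass.

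The 3 VDAC genes encode the voltage-dependent anion channels of the outer membrane, of which VDAC2 binds BAK and BAX, and all 3 fell. Of all tested genes 25.3% were called lower. *VDAC2* was 235, 238 and 252 CPM with DMSO and 150, 165 and 181 CPM with TH588, without overlap (log2 fold change -0.55, adjusted p = 2.10e-04 by edgeR's quasi-likelihood test). *VDAC1* and *VDAC3* had log2 fold changes of -0.49 and -0.58. The summed level of the 3 went from 632 to 662 CPM in the DMSO libraries to 440 to 464 CPM in the TH588 libraries.

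Among 9 genes for enzymes that add ubiquitin to MCL1, BAX, BAK or BOK or take it off, 2 were higher and 2 were lower. These counts were near the shares of all tested genes, 24.2% higher and 25.3% lower. *FBXW7*, the substrate receptor of a ligase that marks MCL1 for degradation, rose from 28.1 ± 1.46 to 45.3 ± 4.81 CPM (SD, n = 3 each, log2 fold change 0.69). *BTRC*, another such receptor, had 0.22 and an adjusted p of 0.0488 in edgeR, a call lost in 12 of 15 alternatives, the replicate block and the omission of any library but TH588 B among them (0.17 to 0.27). *USP13*, a deubiquitinase that stabilizes MCL1, fell by 0.56 on the log2 scale, and *HUWE1*, the MCL1 ligase also called MULE, fell by 0.37. The list had a median of 0.19.

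Of 5 genes for proteins that leave the mitochondrion once the pore opens, *CYCS*, which encodes cytochrome c, fell most, from 485, 550 and 541 CPM to 271, 172 and 187 CPM (log2 fold change -1.32, SE 0.14, adjusted p = 1.22e-05 by edgeR's quasi-likelihood test). *HTRA2*, a protease that antagonizes inhibitor of apoptosis proteins, rose by 0.53 on the log2 scale, with 36.9% of its exon bases shared with genes on the opposite strand. *AIFM1* was lower by a small margin (-0.22, adjusted p = 0.0304 in edgeR), a call lost in 8 of 15 alternatives, among them the replicate block and the omission of any DMSO library or of TH588 C (-0.23 to -0.16), and *DIABLO* (0.40) and *ENDOG* (-0.27), which share 30.4% and 39.2% of their exon bases with other genes, did not pass. The list had a median of -0.22.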

How the data were processed

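RNA from 3 DMSO and 3 TH588 cultures of A2780 was sequenced from unstranded TruSeq v2 libraries. The authors aligned reads to GRCh38 with TopHat 2.0.14 and counted them per gene with featureCounts 1.4.6; the deposited values are raw counts. UCSC annotation is named as the source of the gene models, although genes are listed by Ensembl identifier. Of these, 57754 were matched to symbols, and 99.97% of those overlapped the same identifier in GENCODE 44.

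Counts were tested with edgeR 4.0.16 (R 4.3.3; TMM, default filter on low counts, quasi-likelihood test, no replicate term), with Benjamini-Hochberg adjustment over 15844 genes and a threshold of 0.05. Each SE was obtained from the estimate and the F statistic (estimate/√F). Replicates differed by more than sampling noise. The script was tested on simulated data. The members and gene lists were chosen with earlier results of these data known.

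All 9 members and all BH3-only genes were named. A listed gene is not reported here and was left out of its list's counts. In other lists up to 3 changes past the threshold were named per direction, with genes sharing 10% or more of a member's exon bases and the 3 nearest profiles (mean log2 CPM of at least 2). DESeq2 1.42.0, limma-voom (limma 3.58.1), other scalings and filters, a length trend, a threshold of 0.01, a replicate term and each library left out were alternatives. Summing overlapping genes and leaving out shared exon bases were chosen after seeing the data. Floors of 3 counts and Poisson intervals cover counting error only.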

Additional observations from a re-analysis of the deposited data

How the results depend on the processing

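*BAX* (2.02 to 2.16) and *MCL1* (0.45 to 0.57) passed in every alternative that was run, the number of members higher was 2 or 3, and the number lower was 0. The number of genes called over the whole table was 7852, and 5831 to 8225 in the alternatives (6805 to 7914 with 1 library left out). *BAK1* passed with library size only (0.447, adjusted p = 0.034 in edgeR) and with at least 10 counts in every library (0.365, adjusted p = 0.0474 in edgeR); with 1 library left out it ranged from 0.26 to 0.46 and passed without DMSO A and without TH588 C, and its adjusted p over all alternatives ran from 0.0333 to 0.197. *BCL2L2* changed sign with library size only (0.073) and without DMSO B, with a range from -0.157 to 0.13 over the libraries left out. *BCL2L14* ranged from -0.013 (without TH588 C) to 0.229 over the libraries left out. The ratio of pore formers to guardians moved to 0.337 and 0.796 (DMSO and TH588) on CPM, and to 0.649 and 1.46 without *BCL2L1* and *BCL2L2*. *BCL2* was not tested with at least 10 counts in every library, since TH588 A had fewer. With library size only, the median of all genes was 0.126 in place of 0.019, and 60.4% of called genes were higher in place of 48.9%. The causes were not tested.

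The study states no pairing by letter, and the main test used none. Same-lettered libraries did not deviate together (correlations of -0.17, -0.20 and -0.01). With 3 libraries per group this cannot show that the cultures were unpaired. With the letter as a replicate block, 7195 genes were called, *BAX* was 2.059, *MCL1* 0.468 and *BAK1* 0.353, and no call among the 9 members changed, while *BTRC* (adjusted p = 0.093) and *AIFM1* (adjusted p = 0.0863) no longer passed in edgeR. Counts were lowest for *BCL2*, *BOK* and *BCL2L1* among the members tested, and none of them passed with TH588 A left out either.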
